A study of Mus musculus with 14 samples.

Results

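The Hsd3b genes encode the 3β-hydroxysteroid dehydrogenases of the mouse, and 7 of them (Hsd3b1, Hsd3b2, Hsd3b3, Hsd3b4, Hsd3b5, Hsd3b6 and Hsd3b7) were followed in male and female liver from weaning to adulthood. Members were chosen as the probes whose RefSeq accession belongs to one of these gene symbols. This gave 9 probes for 7 of the 19751 named genes on the array. The rule uses no level or ratio, although the family was chosen with earlier results of these data known.

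CD-1 mice of both sexes were studied at ages of 3, 4 and 8 wk, in 6 groups named M3, M4, M8, F3, F4 and F8 after sex and age. All groups were untreated CD-1 liver, and each was represented by 2 pools of RNA. The pools were made from 5 mice each at 3 wk and from 6 mice each at 4 and 8 wk. The spread between single mice was therefore not measured on the arrays. Pairs of groups were hybridized in 7 comparisons to 2 arrays each (3 of the sexes, which were M8/F8, M4/F4 and M3/F3, and 4 of ages, which were M8/M3 and M8/M4 in males and F8/F3 with F8/F4 in females), with the dyes exchanged on the second array. Each value below is a log2 ratio, male over female or 8 wk over younger, so that 1 means a doubling, and the replicate 1 array is always given before the replicate 2 array.

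A gene was called when its Benjamini-Hochberg adjusted p in limma was below 0.05, the change was more than 1.5-fold in either direction, and 1 or both of its groups stood well above background on each of the 2 arrays, which is the software's mark for a signal distinct from its surroundings. Between 55.2% and 77.2% of the spots in a channel were well above background, and no spot was saturated. The arrays lay on 4 slides scanned on 2 days, and each comparison was scanned within 1 day. The sex comparisons and M8/M3 were scanned on day 1 and the other age comparisons on day 2, on other slides. The difference between the male and the female change from 3 to 8 wk therefore crosses days and slides, as does M4/M3. In these contrasts scan day and slide cannot be told apart from sex or age. The pools served several comparisons, so that ratios with a common group are not independent measurements. The labels do not name the pool on an array, and arrays with the same replicate number were taken here to hold the same pool of a group, which is the basis of every pool level below. The study's methods give the male pool of the first M3/F3 array the opposite dye to its label, so that this match by number is open to doubt for the 3 wk pools. Direction followed the labels, under which Ddx3y, a gene of the Y chromosome, was higher in males by at least 5.80 and Xist, which is transcribed from the inactive X chromosome, was at -5.10 or below on all 6 sex arrays. The brightest probe of every member was well above background in all 28 channels, including those of 8 wk male liver. Precision is limited by the 2 arrays of each comparison, and a loss of cells that express a gene cannot be told apart from less of its RNA per cell.

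Enzymes of this family act on the 3β-hydroxyl group of steroids. The dehydrogenase and isomerase forms turn pregnenolone and dehydroepiandrosterone into progesterone and androstenedione, a step on the way to all active steroid hormones. In the mouse, Hsd3b1 is best known from adrenal gland and gonads and Hsd3b6 from placenta, skin and adrenal, whereas Hsd3b2 and Hsd3b3 are known from liver and kidney. Hsd3b4 and Hsd3b5 work mainly as 3-ketosteroid reductases, which inactivate androgens, and Hsd3b5 is widely used as a marker of male liver. Hsd3b7 is set apart by its substrate, since it oxidizes sterols with 7α-hydroxyl groups in the synthesis of bile acids.

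In the RefSeq gene table, 6 members lie together on chromosome 3, in the order Hsd3b4, Hsd3b5, Hsd3b2, Hsd3b3, Hsd3b6, Hsd3b1, and Hsd3b7 lies on chromosome 7. From the first to the last of them, the cluster on chromosome 3 holds 13 annotated genes, of which 6 are pseudogenes and 1, Gm10681, is a further protein-coding gene. Gm10681 carries Hsd3b4 among its synonyms and had 0 probes of its own on the array. The letters of the probes are not held here, so how far a probe also binds the transcripts of a neighbouring member was not tested, and each value belongs to a probe rather than to a proven single gene.

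The sequences before the annotated gene starts are shown for the members whose ratios moved apart. Each is the 250 bases upstream of the start in RefSeq's annotation of GRCm38.p6, on the minus strand of chromosome 3. For Hsd3b1 (chr3:98859795-98860044) and Hsd3b2 (chr3:98724544-98724793), capitals mark matches to any of the motifs searched on both strands, which were the STAT5 site TTCNNNGAA, the forkhead site TGTTTAC, the steroid receptor hexamer TGTTCT, the TATA box TATAAA and the HNF4 site CAAAGTCCA. For Hsd3b3 (chr3:98763129-98763378) and Hsd3b5 (chr3:98645535-98645784), which held none of these motifs, capitals mark the stretch that the pair shares.
Hsd3b1: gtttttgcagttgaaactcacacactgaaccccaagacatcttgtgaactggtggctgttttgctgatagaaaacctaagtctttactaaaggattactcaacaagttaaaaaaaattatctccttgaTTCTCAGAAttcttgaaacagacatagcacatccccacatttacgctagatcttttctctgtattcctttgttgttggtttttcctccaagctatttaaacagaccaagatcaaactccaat
Hsd3b2: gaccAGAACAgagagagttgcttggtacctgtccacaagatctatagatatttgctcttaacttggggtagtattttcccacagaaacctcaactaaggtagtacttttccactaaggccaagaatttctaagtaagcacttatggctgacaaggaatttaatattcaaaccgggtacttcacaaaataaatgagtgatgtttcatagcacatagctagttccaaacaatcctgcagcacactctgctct
Hsd3b3: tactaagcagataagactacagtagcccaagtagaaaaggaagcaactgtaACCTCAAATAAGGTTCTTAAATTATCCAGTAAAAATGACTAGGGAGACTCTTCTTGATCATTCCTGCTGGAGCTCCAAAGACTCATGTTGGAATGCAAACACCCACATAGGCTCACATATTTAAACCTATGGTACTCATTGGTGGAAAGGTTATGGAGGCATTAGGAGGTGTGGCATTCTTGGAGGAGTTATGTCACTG
Hsd3b5: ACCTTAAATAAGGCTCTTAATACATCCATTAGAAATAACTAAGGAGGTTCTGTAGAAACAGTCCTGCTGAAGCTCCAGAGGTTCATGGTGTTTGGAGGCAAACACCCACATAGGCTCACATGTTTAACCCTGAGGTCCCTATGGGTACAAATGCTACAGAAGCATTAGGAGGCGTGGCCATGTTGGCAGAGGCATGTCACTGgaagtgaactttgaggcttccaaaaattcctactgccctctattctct

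The STAT5 letters stood 122 bases before the start of Hsd3b1, as TTCTCAGAA, and 21 bases before that of Hsd3b7, as TTCCTGGAA. They were found in 7.02% of the 32851 promoters of that table. The steroid receptor hexamer, found in 16.1% of all promoters, stood 246 bases before the start of Hsd3b2 and was also found before Hsd3b4 and Hsd3b6. The forkhead site (3.17% of promoters), the TATA box (12.4%) and the HNF4 site (0.384%) matched no member in this window. Hsd3b3 and Hsd3b5 had 151 identical bases over an alignment of 202 positions (74.8%). Apart from the alternative starts of a single gene, no other pair of members aligned over more than 52 positions. A match or its absence describes these letters only.

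Hsd3b5 and Hsd3b4, the ketosteroid reductases, took opposite courses. Hsd3b5 was higher at 8 wk than at 3 wk in male liver, whereas Hsd3b4 was lower at 8 wk than at 3 and 4 wk in both sexes.

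For Hsd3b5 (NM_008295, probe A_55_P2111980) the M8/M3 ratios were 2.37 and 2.13, which gave a fitted log2 ratio of 2.25 (SE 0.50, 4.75-fold, adjusted p = 0.0278 by limma). Both arrays were well above 0. It was the only comparison in which Hsd3b5 was called, and this call was lost in 7 of the 14 fits that left out an array. Without the M4/F4 replicate 1 array, either M8/F8 array, either M8/M3 array or either F8/F4 array it was not called, and the highest adjusted p of these fits was 0.187.

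The sex ratio of Hsd3b5 in adult liver was 1.92 and 1.70, and at 4 wk it was 1.69 and 1.03. All 4 arrays showed more signal in males. The fitted ratios were 1.81 at 8 wk (SE 0.50, adjusted p = 0.0593 by limma) and 1.36 at 4 wk (SE 0.50, adjusted p = 0.137 by limma), and neither was called. At 3 wk the replicates disagreed, with -1.0 on the first and 1.06 on the second array. Over the 30 alternatives Hsd3b5 was called under 7 at 8 wk and under 4 at 4 wk. The fit gives all comparisons of a probe a common spread, so leaving out arrays of other groups can make or end a call. Without either M3/F3 array their disagreement no longer enters this spread, and Hsd3b5 was called at both ages. These calls follow from the smaller spread and are no further evidence for a sex ratio. Separate evidence comes from the study's quantitative PCR on single mice, which was not re-examined here. The study classes Hsd3b5 as male-specific in adult liver and reports significantly more of its RNA in males already just before puberty. It also reports a significant rise with age in male liver, and array profiles very similar to those of the PCR.

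Of the age comparisons with 3 wk RNA, F8/F3 also differed between its arrays, at 0.15 and 1.28, and M8/M3 did not, with a gap of 0.24. The fitted F8/F3 ratio was 0.72 (adjusted p = 0.466 by limma). The difference between the male and the female change was 1.53 from 3 to 8 wk (SE 0.71, adjusted p = 0.327 by limma). From 4 to 8 wk it was 0.52 (adjusted p = 0.89 by limma), and neither difference was called. The normalized log2 signal of the F3 pools was 13.44 and 12.37. M8/M4, which holds no 3 wk RNA, was 0.37 and 1.33, with M4 pools at 15.35 and 14.52. In contrast, the M8 pools stood at 15.80 and 15.96, above the F8 pools at 13.68 and 13.88. The pools of M8 therefore did not overlap with those of any other group, and the ranges of F4 (13.54 and 13.33), M3 (13.00 and 13.64) and F3 overlapped one another. The spread of Hsd3b5 between replicate arrays was larger than that of 98.8% of the genes tested in M8/F8.

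**Figure D1:**
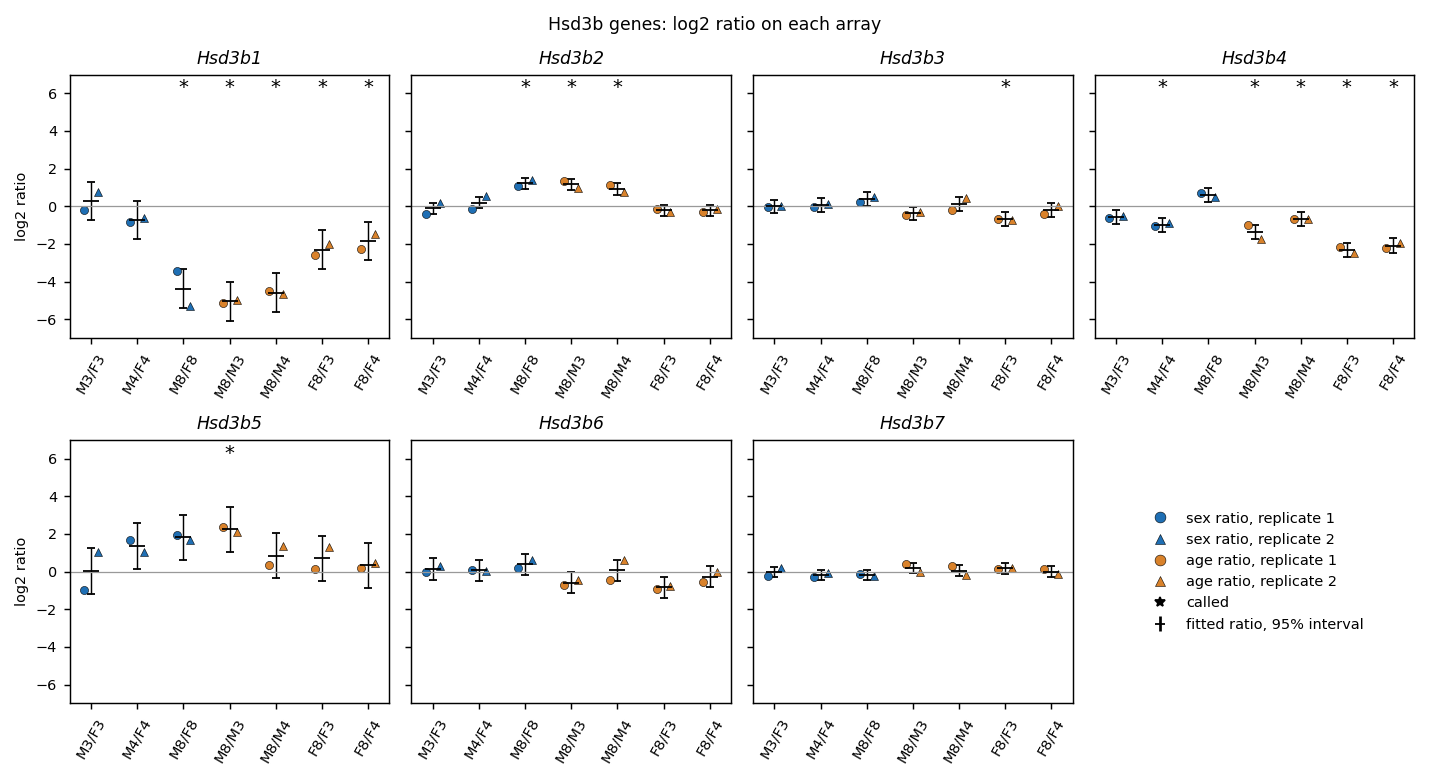
Log2 ratios of the 7 Hsd3b genes (brightest probe) in the 7 comparisons. Circles are replicate 1 and triangles replicate 2 arrays, black bars are the fitted ratio with its 95% interval (limma, 14 arrays), and asterisks mark called ratios. Hsd3b1 falls with age in both sexes, with fitted ratios that are lower in males (a difference not called, adjusted p = 0.0594 and 0.102 by limma), Hsd3b2 rises in males alone among the called ratios, Hsd3b4 falls in all 4 age comparisons, and the M3/F3 arrays of Hsd3b5 lie on opposite sides of 0.

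Hsd3b4 (NM_001111336, probe A_55_P1969665) fell with age in every age comparison. In female liver F8/F3 was -2.19 and -2.49 (fitted -2.34, SE 0.16, adjusted p = 0.000348 by limma), and F8/F4 was -2.23 and -1.94 (fitted -2.09, adjusted p = 0.000502 by limma). In male liver M8/M3 was -1.01 and -1.72 (fitted -1.36, adjusted p = 0.0023 by limma), and M8/M4 was -0.70 and -0.67 (fitted -0.68, adjusted p = 0.032 by limma). Adult female liver thus had 5.05-fold less signal than female liver at 3 wk, and adult male liver had 2.57-fold less than male liver at 3 wk. The M8/M4 ratio was the least secure of the 4, since it was not called in 8 of the 14 fits without an array, those without either array of M3/F3, M4/F4, M8/M4 or F8/F3, nor with the shared pools in the covariance of the arrays (adjusted p = 0.0793 by limma).

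The sex ratio of Hsd3b4 changed sign between 4 and 8 wk. It was -1.07 and -0.91 at 4 wk, when females had 1.99-fold more signal (fitted -0.99, SE 0.16, adjusted p = 0.00794 by limma). Without either M4/F4 array it was not called, with an adjusted p of up to 0.068, nor was it on the dimmer Hsd3b4 probe (adjusted p = 0.242 by limma). At 3 wk the ratios were -0.64 and -0.50 (fitted -0.57, adjusted p = 0.0599 by limma), and at 8 wk they were 0.71 and 0.48 (fitted 0.60, adjusted p = 0.0508 by limma). The 8 wk ratio was called under 5 of the 30 alternatives, among them the slide as a block (adjusted p = 0.0386 by limma). All 4 arrays at 3 and 4 wk were below 0, and both arrays at 8 wk were above 0. The difference between the male and the female change from 4 to 8 wk was itself called, at 1.40 (SE 0.22, adjusted p = 0.0383 by limma). It was not called with the replicate number as a block (adjusted p = 0.0572 by limma) or the slide as a block (adjusted p = 0.05 by limma) or with the shared pools in the covariance (adjusted p = 0.141 by limma), and it remained called in only 2 of the 14 fits without an array, which were those without an M8/M3 array. From 3 to 8 wk that difference was 0.97 (adjusted p = 0.0672 by limma).

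Hsd3b4 had a second, dimmer probe (A_52_P548963) that was well above background in 16 of the 28 channels. Both groups were well above background on 4 of its 14 arrays. M8 on both M8/M3 arrays and F8 on both F8/F3 arrays were not well above background, so these ratios are bounds, taken against the lowest normalized signal well above background on each array or the probe's own signal where that was higher. M8 was at least 2.2-fold lower than M3, and F8 at least 2.59-fold lower than F3. The fitted ratios, which take the dim signals at face value, had adjusted p-values of 0.00299 and 0.0139 by limma, and these are not p-values of the bounds. In F8/F4 and M8/M4 the 8 wk group was well above background on the replicate 2 array alone, with ratios of -1.15 and -0.21 there. In M4/F4 both groups were well above background on the replicate 1 array alone, where the ratio was -0.39. The sex ratio at 8 wk was not measured by it, since M8 was well above background on neither M8/F8 array and F8 on only 1.

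Hsd3b1 and Hsd3b6, the forms known from steroid-producing tissues, differed in size of change. Hsd3b1 had the largest ratios of the family, and Hsd3b6 was called in no comparison, although a call in F8/F3 was made under 9 of the 30 alternatives.

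Hsd3b1 (NM_008293, probe A_55_P2087805) had M3/F3 ratios of -0.20 and 0.78, so that the arrays disagreed in sign at 3 wk (95% interval from -0.73 to 1.31). At 4 wk the ratios were -0.84 and -0.60 (fitted -0.72, adjusted p = 0.37 by limma). At 8 wk they were -3.42 and -5.32, which gave a fitted ratio of -4.37 (SE 0.43, adjusted p = 0.00124 by limma). This is 20.7-fold more signal in females on these arrays. It was called in all 14 fits without an array, between -5.31 and -3.43.

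The 8 wk sex difference of Hsd3b1 came with falls in both sexes. M8/M3 was -5.13 and -4.99 (fitted -5.06, adjusted p = 0.000747 by limma) and M8/M4 was -4.49 and -4.68 (fitted -4.58, adjusted p = 0.00105 by limma). F8/F3 was -2.61 and -1.99 (fitted -2.30, adjusted p = 0.0143 by limma) and F8/F4 was -2.24 and -1.46 (fitted -1.85, adjusted p = 0.0319 by limma). The signal at 8 wk was 33.3-fold less than at 3 wk in male liver and 4.93-fold less in female liver. The F8/F3 call was lost without either of its own arrays (adjusted p up to 0.122), and the F8/F4 call was lost in 10 of the 14 fits, all but those without an M3/F3 or M8/F8 array, and with the replicate number as a block (adjusted p = 0.051 by limma). With the slide as a block neither female ratio of Hsd3b1 was called (adjusted p = 0.0511 and 0.0876 by limma), nor was either with the shared pools in the covariance (adjusted p = 0.171 and 0.287 by limma).

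The difference between the sexes in these falls was -2.76 from 3 to 8 wk (SE 0.61, adjusted p = 0.0594 by limma) and -2.73 from 4 to 8 wk (adjusted p = 0.102 by limma). Neither was called, and all 4 replicate differences, which share the 8 wk pools, lay below -2.2. The former was called under 6 of the 30 alternatives and the latter under 3. Those of the former include the fits without either M8/F8 array, whose disagreement then no longer enters the common spread. The depth of the male fall is known less well than its direction. In the 6 channels with M8 RNA, the normalized log2 signal of Hsd3b1 ran from 5.97 to 9.16 (median 7.53), whereas the 6 F8 channels ran from 10.62 to 11.42. On the M8/F8 arrays the processed signal of M8 was 134 and 54.4, beside F8 at 1429 and 2177. On the M8/M4 arrays it was 184 and 193, beside M4 at 4132 and 4953. The M8/M3 arrays gave 279 and 659, beside M3 at 9765 and 20860. The mean normalized log2 level was 7.57 in M8 and 11.01 in F8, closer together than the M8/F8 ratio. The folds given above thus belong to the arrays they were read on.

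For each replicate the sex difference in the age change can be read from the age arrays (male minus female age ratio) and from the sex arrays (8 wk minus younger sex ratio). Over all 7 members, 2 ages and 2 replicates, these 28 pairs of values differed by a median of 0.11 on the log2 scale. For Hsd3b1 in replicate 2 from 3 to 8 wk they were -2.99 and -6.10, a gap of 3.11 and the widest of all. Both readings were negative in each of the 4 Hsd3b1 pairs, so the direction was the same on either set of arrays.

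**Figure D2:**
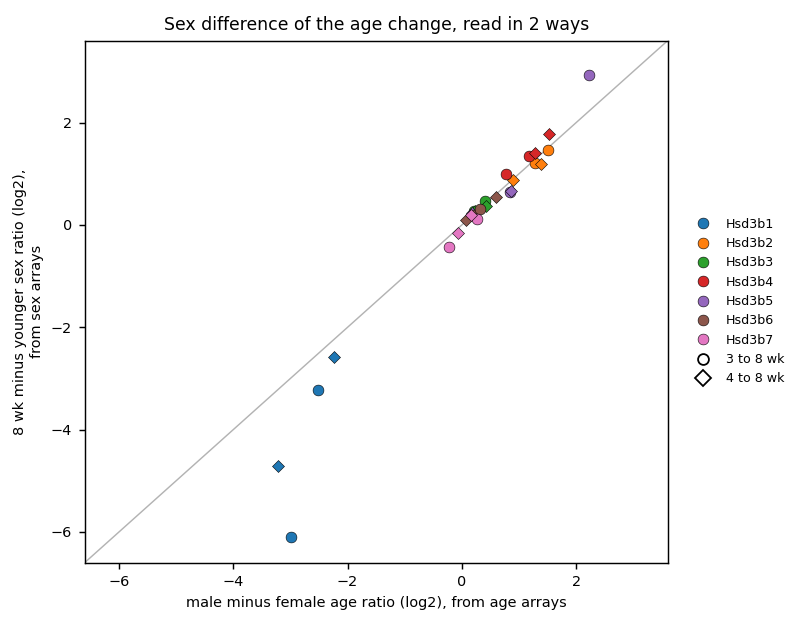
Male minus female log2 age ratio from the age arrays (horizontal) against the 8 wk minus younger log2 sex ratio from the sex arrays (vertical), for each member and replicate, with the line of equality. Circles are 3 to 8 wk and diamonds 4 to 8 wk. Most points lie along the line, with a median gap of 0.11, and the 4 points of Hsd3b1 lie below it, at up to 3.11.

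Hsd3b6 (NM_013821, probe A_52_P253567) had M8/F8 ratios of 0.19 and 0.60 (fitted 0.40, adjusted p = 0.37 by limma). Its largest ratio was that of F8/F3, at -0.92 and -0.77 (fitted -0.84, SE 0.24, adjusted p = 0.0608 by limma). It was called with the replicate number as a block (adjusted p = 0.0221 by limma) and with the slide as a block (adjusted p = 0.0389 by limma), and not with the shared pools in the covariance (adjusted p = 0.0837 by limma). M8/M3 was -0.72 and -0.45 (fitted -0.58, adjusted p = 0.172 by limma). All 4 of these age arrays were below 0, and the fitted M4/M3 and F4/F3 ratios, taken through the common 8 wk pools, were -0.65 and -0.57 and also not called. In M8/M4 the arrays disagreed, at -0.47 and 0.60.

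Hsd3b2 and Hsd3b3, the liver and kidney forms, lie next to each other in the RefSeq table. Hsd3b2 rose in male liver, and Hsd3b3 was called only for a fall in female liver.

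Hsd3b2 (NM_153193, probe A_55_P2036547) was male-biased in adult liver, with M8/F8 ratios of 1.05 and 1.39 (fitted 1.22, SE 0.13, 2.34-fold, adjusted p = 0.0015 by limma). M8/M3 was 1.37 and 0.98 (fitted 1.17, adjusted p = 0.00176 by limma) and M8/M4 was 1.11 and 0.74 (fitted 0.92, adjusted p = 0.00437 by limma). All 6 of these arrays were above 0.7, but they share 2 M8 pools and are not 6 independent readings. In female liver F8/F3 was -0.13 and -0.30 and F8/F4 was -0.29 and -0.15. All 4, which share the F8 pools, were below 0, and neither comparison was called (adjusted p = 0.365 and 0.359 by limma). The interval of the F8/F3 ratio ran from -0.52 to 0.09. At 3 wk (-0.41 and 0.18) and 4 wk (-0.15 and 0.52) the sex ratio of Hsd3b2 lay on both sides of 0.

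The sexes differed in the age change of Hsd3b2, by 1.39 from 3 to 8 wk (SE 0.18, adjusted p = 0.0116 by limma) and by 1.14 from 4 to 8 wk (SE 0.18, adjusted p = 0.0364 by limma). The former was lost without either M8/M3 array and without the F8/F3 replicate 1 array (adjusted p up to 0.072). Neither difference was called without the dye term (adjusted p = 0.0507 and 0.154 by limma). The latter was called in 1 of the 14 fits without an array, the one without the F8/F4 replicate 2 array, and adjusted p reached 0.151, and it was not called with the slide as a block (adjusted p = 0.0535 by limma) or with the shared pools in the covariance (adjusted p = 0.0851 by limma). The normalized log2 signal of the M8 pools was 14.60 and 14.52, above all other pools, which ranged from 13.18 (F8) to 13.76 (M4), and each of the other groups overlapped with at least 1 of the rest.

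The second Hsd3b2 probe (A_55_P2023114) gave M8/F8 ratios of 1.01 and 1.17 (fitted 1.09, adjusted p = 0.00678 by limma) and was called there as well. Its male age ratios were smaller and not called, at 0.57 and 0.47 in M8/M3 (fitted 0.52, adjusted p = 0.0943 by limma) and at 0.30 and 0.84 in M8/M4 (fitted 0.57, adjusted p = 0.071 by limma). The difference between the sexes from 3 to 8 wk was 0.96 on this probe (adjusted p = 0.081 by limma). The adult sex difference was thus common to both probes and the size of the male rise was not. Over the 14 ratios, Pearson's r between the Hsd3b2 probes was 0.79, and r between this dimmer probe and the Hsd3b3 probe was likewise 0.79. With the brighter Hsd3b4 probe it was 0.80, and with the dimmer one 0.30.

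**Figure D3:**
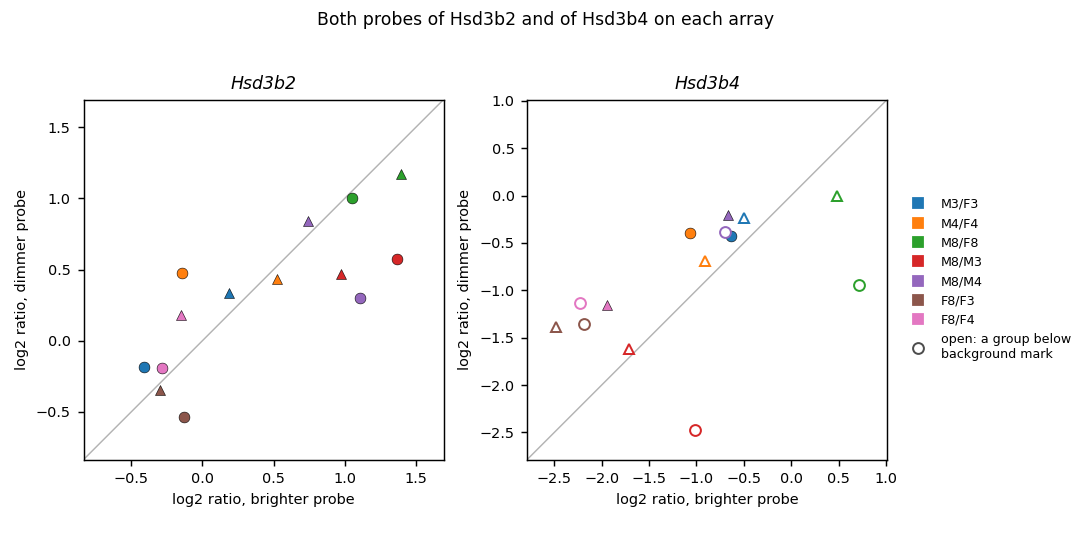
Log2 ratio of the dimmer (vertical) against the brighter probe (horizontal) on each of the 14 arrays for Hsd3b2 and Hsd3b4, with the line of equality, circles for replicate 1 and triangles for replicate 2. Open symbols mark arrays on which a group was not well above background on a probe, which is so for 10 of the 14 Hsd3b4 arrays and 0 of the Hsd3b2 arrays, and both Hsd3b2 probes place M8/F8 above 1.

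Hsd3b3 (NM_001161742, probe A_55_P1958804) was called in F8/F3 alone, at -0.66 and -0.72 (fitted -0.69, SE 0.15, 1.61-fold less, adjusted p = 0.0275 by limma). The call was lost without either F8/F3 or either M8/M3 array (adjusted p up to 0.2), and also when arrays were allowed to covary through their common pools (adjusted p = 0.0547 by limma). M8/M3 was also below 0 on both arrays, at -0.44 and -0.32 (fitted -0.38, adjusted p = 0.171 by limma), and the difference between the sexes was 0.31 (adjusted p = 0.537 by limma). M8/F8 was 0.24 and 0.49 (fitted 0.37, adjusted p = 0.185 by limma). Hsd3b3 and Hsd3b5, whose upstream windows had the longest alignment between members, had M8/M3 ratios of -0.38 and 2.25. A link between these windows and the ratios was not tested.

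Hsd3b7 (NM_133943, probe A_55_P1982762), the bile acid enzyme, was called in no comparison. Its 14 array ratios lay between -0.31 (M4/F4) and 0.40 (M8/M3). The fitted M8/F8 ratio was -0.18 with a 95% interval from -0.45 to 0.09, and the fitted M8/M3 ratio was 0.18 with an interval from -0.09 to 0.45. Over the 7 comparisons, the lowest bound of these intervals was -0.47 and the highest 0.45. The pools of all groups had normalized log2 signals from 15.63 to 15.89, and the M8 pools (15.89 and 15.71) spanned values of every other group.

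**Figure D4:**
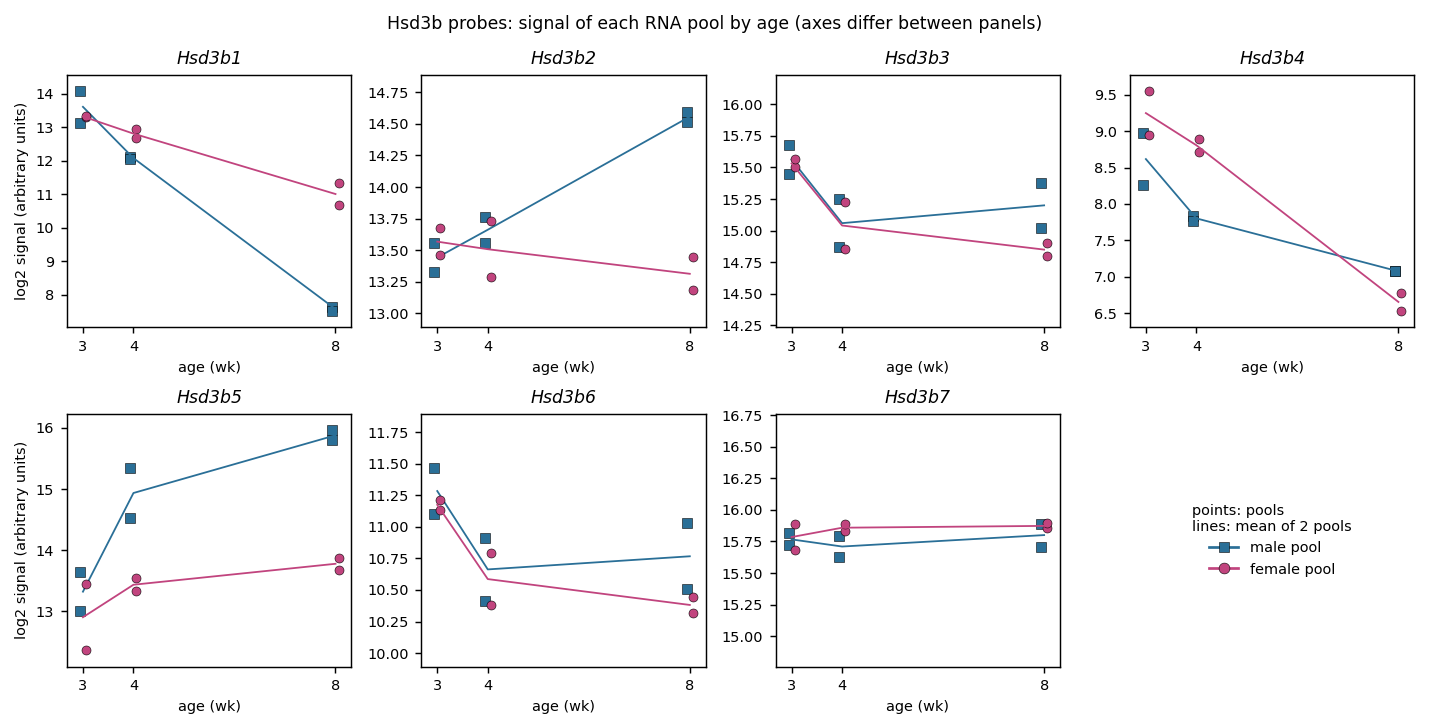
Normalized log2 signal (arbitrary units) of the brightest probe of each Hsd3b gene in the 2 pools of each group, by age, with lines through the group means. Axes differ between panels and levels of different probes are not compared. In M8 the pools of Hsd3b2 (14.52 and 14.60) and Hsd3b5 (15.80 and 15.96) are the highest and those of Hsd3b1 (7.62 and 7.52) the lowest of their panels.

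Counted over the family, in M3/F3 0 of 7 members were called in limma, against 0.517% of all genes bright enough to test. In M4/F4 1 member was called, lower in males (1.58% of all genes), and in M8/F8 2 were called, Hsd3b2 higher and Hsd3b1 lower in males (6.40%). At an unadjusted p below 0.05 the numbers were 1 at 3 wk (11.8% of all genes), 2 at 4 wk (21.1%) and 5 at 8 wk (39.9%). Error-weighted averages gave 0 (1.12%), 3 (2.38%) and 3 (6.67%), and normexp with loess gave 1 (0.465%), 1 (1.57%) and 3 (4.84%). In the age comparisons, 4 of 7 members were called in M8/M3 (17.8% of all genes), 3 in M8/M4 (10.8%) and, in females, 3 from 3 to 8 wk (11.7%) and 2 from 4 to 8 wk (6.00%). Of the called age ratios of males, Hsd3b2 and Hsd3b5 were higher and Hsd3b1 and Hsd3b4 lower at 8 wk, and all of those of females were lower.

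The difference between the sexes was called for 1 member from 3 to 8 wk (3.35% of all genes) and for 2 members from 4 to 8 wk (1.31%). No member was called from 3 to 4 wk, neither in M4/M3 (0.295% of all genes) nor in F4/F3 (0.0945%). At an unadjusted p below 0.05 these limma fits gave 1 member in M4/M3 (17.4% of all genes) and 0 in F4/F3 (14.4%), and error-weighted averages gave 1 (1.13%) and 0 (0.992%). The median log2 ratio of the 7 members was 0.40 in M8/F8, -0.38 in M8/M3 and -0.69 in F8/F3, beside 0.00, 0.01 and 0.02 over all genes. With 7 members that moved in both directions, these medians describe no common course.

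Some members ran in parallel over the 14 ratios, which have pools in common and are no independent samples. Hsd3b3 and Hsd3b6 had the highest Pearson's r of the family at 0.97, and Hsd3b1 and Hsd3b2 the lowest at -0.77. Hsd3b3 and Hsd3b6 are neighbours in the cluster, and their probes reached processed signals of 67420 and 3263. Whether either probe also binds the transcript of the other gene was not tested. Hsd3b2 and Hsd3b5 had an r of 0.65, and Hsd3b5 with Hsd3b3 had an r of 0.15.

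Outside the family, the 3 genes most like each member were taken from 4859 bright and variable genes. They were Radx, Smtnl2 and Zbp1 for Hsd3b1 (r from 0.96 to 0.97), and Acox2, Tmc7 and Fam160a1 for Hsd3b2 (r from 0.96 to 0.97). Radx, a gene of DNA replication, had an M8/F8 ratio of -3.01, and Acox2, a peroxisomal oxidase of bile acid side chains, one of 0.49. For Hsd3b5 they were Il13ra2, Serpina12 and Bik (r from 0.87 to 0.91), and for Hsd3b4 they were Nme1, Ocstamp and Dut (r = 0.94 for each). Retnlg, A2m and S100a9 were nearest to Hsd3b3 (r from 0.92 to 0.96), A2m, Tsr1 and Ppan to Hsd3b6 (r from 0.92 to 0.94), and Mmd, Tyw3 and Magix to Hsd3b7 (r from 0.89 to 0.92).

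Other enzymes that make or break down steroids moved in both directions. Of 21 listed genes bright enough to test in M8/F8, 2 were higher and 2 lower in males and 17 were not called (median -0.11). Cyp7b1, an oxysterol and steroid hydroxylase, was higher by 2.81 (adjusted p = 0.00861 by limma) and Srd5a1, a steroid reductase, by 0.89, whereas Cyp17a1, the hydroxylase and lyase that leads to androgens, was at -2.66 (adjusted p = 0.000285 by limma) and Akr1d1, a steroid 5β-reductase, at -0.78. In M8/M3 5 of 21 were higher and 1 lower (median 0.27), among them Cyp7b1 at 4.17, Cyp21a1 at 1.27, Hsd17b6 at 1.23 and Akr1d1 at -0.62. In F8/F3 2 of 23 were higher and 0 lower (median 0.21).

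Of the 16 enzymes of bile acid synthesis listed beside Hsd3b7, 3 were higher and 3 lower in males in M8/F8 (median 0.16). Cyp7a1, the rate-limiting enzyme, was at -1.61 (adjusted p = 0.00327 by limma) and Cyp39a1 at -1.59, whereas Cyp46a1 was at 1.33 and Scp2 at 0.83. In M8/M3 9 were higher and 2 lower (median 0.61), with Cyp46a1 at 2.26, Cyp8b1, which makes cholic acid, at 1.37 and Cyp39a1 at -1.67. In F8/F3 5 were higher and 0 lower (median 0.35). Hsd3b7 was thus not called while 9 other enzymes of its pathway were called higher in M8/M3. Over all genes, 17.8% were called in M8/M3 in either direction. A difference between Hsd3b7 and these enzymes was not tested.

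Among 15 genes of the growth hormone axis and its nuclear partners, 0 were higher and 4 lower in males in M8/F8 (median -0.24). Cux2, a transcription factor of female liver, was at -4.98 (adjusted p = 0.000118 by limma) and the estrogen receptor Esr1 at -1.50. In M8/M3 the growth hormone receptor Ghr (0.61) was among those higher, and Cux2 (-3.14) and Esr1 (-1.25) were lower. In F8/F3 3 of 15 were higher and 0 lower.

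Markers of other cell types were read beside these results. All 14 hepatocyte markers were well above background in all channels. Of 9 markers of adrenal cortex and gonad, Star, Cyp21a1 and Nr5a1 were well above background in all 28 channels, Inha in 8, Cyp11b2 in 2, and Cyp11a1, Cyp11b1, Mc2r and Lhcgr in 0. Cyp21a1 (1.27) and Nr5a1 (0.67) were higher in M8/M3, and in M8/F8 Nr5a1 was lower in males (-0.70, adjusted p = 0.00668 by limma). In females Nr5a1 was higher in F8/F3 (1.21, adjusted p = 0.000856 by limma) and in F8/F4 (0.66), and Cyp21a1 was called in neither. The summed signal of the list was 638 to 865 in M8, 660 to 910 in F8, 329 to 423 in M3 and 390 to 463 in F3. Of 10 kidney markers, Aqp2 and Pax2 were well above background in all 28 channels, Cdh16 in 26, Kap in 25, Slc34a1 in 15, Nphs1 in 13, Slc12a3 in 3, Umod in 1 and Slc12a1 in 0. In M8/M3 2 of the 4 bright enough to test were higher, Kap (1.29) and Pax2 (2.42), and Aqp2 (0.21) and Cdh16 (-0.15) were not called. Pax2 was also higher in M8/F8 (1.57, adjusted p = 0.0102 by limma), where Hsd3b2 was higher, and Kap (0.73) and Pax2 (1.52) were higher in F8/F3. In M8/M4 1 of 7 was higher, Pax2 (1.65), and in F8/F4 2 of 6, Kap (0.67) and Pax2 (1.37). The summed kidney signal was 39300 to 90700 in M8, 8090 to 22800 in F8, 565 to 12000 in M3 and 908 to 4460 in F3, and Pax2 made up 70.0% to 99.7% of it in these groups. The sums differ by more than the ratio of Pax2, and the normalized signal of Pax2 in M3 was 396 to 621 on the M3/F3 arrays and 5530 to 11800 on the M8/M3 arrays. Without Pax2 the sums were 186 to 300 in M8, 206 to 270 in F8, 148 to 189 in M3 and 137 to 232 in F3. The mesenchymal list was called lower for 4 of 7 genes in M8/M3 and 3 of 7 in F8/F3, the erythroid list for 3 of 5 (with Alas2 called higher, at 1.37, in M8/M3) and 4 of 6, and the liver macrophage list for 2 of 7 and 1 of 7 and, in M8/F8, for 4 of 7. Endothelial markers were called lower for 1 of 7 and 1 of 7, bile duct markers for 2 of 6 and 1 of 6, and lymphocyte markers for 1 of 7 and 0 of 7. Summed mesenchymal signals were 40900 to 48900 in M8, 86000 to 99000 in M3, 49100 to 54600 in F8 and 82800 to 95100 in F3. Summed erythroid signals, carried by Hemgn and Alas2, were 28000 to 34400 in M8, above the 19400 to 24000 in M3, and 18600 to 25800 in F8 beside 20800 to 25800 in F3. Summed macrophage signals were 16600 to 21100 in M8, 26600 to 29200 in M3, 26500 to 29100 in F8 and 32100 to 34000 in F3. The part of these cell types in the ratios of the Hsd3b genes was not tested.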

How the data were processed

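Liver RNA was hybridized to 14 two-colour Agilent whole mouse genome arrays. The authors scanned them and used Agilent Feature Extraction 10.7.1.1 (protocol GE2_107_Sep09), which subtracted background and normalized the dyes linearly and by LOWESS. The deposited files give spot and background intensity (pixel medians and processed signals), the log10 ratio of red over green with its log10 error, and flags as a 0 or 1 score. The deposited log10 series table was identical to the scanner ratios. No RNA was compared directly between 3 and 4 wk.

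Here, ratios were converted to log2, turned by dye and fitted with limma 3.58.1 in R 4.3.3 (7 comparisons and 1 dye term, 14 arrays). The p-values were adjusted over 39429 probes and 7 comparisons together, or within each contrast (sexes, or 3 to 4 wk). Non-uniform spots were left out, none of them of a member. Gene names came through RefSeq accessions, and a gene was read on its brightest probe. Levels were processed signals normalized between arrays (Aquantile) and averaged per pool. The fit was tested on simulated data. Upstream windows were aligned locally with Biopython 1.88.

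All members were named. Also named were up to 3 genes in each direction of a list with the largest called ratios in M8/F8 and M8/M3, and the 3 genes with the highest r to a member over the 14 ratios (at least 12 of 28 channels well above background, SD at least 0.3). A gene that this rule would name is not reported here. The members and lists were chosen with earlier results of these data known. Replicate arrays of comparisons with a common group deviated together (r from 0.118 to 0.637 over 10 pairs of comparisons, across genes), and the series' design text says that these pools were used in all sets of arrays. The labels do not say which pool was on an array, so pools were matched by replicate number. P-values measure the spread between pools and arrays, and 2 arrays per comparison limit the precision. Alternatives were no dye term, 6 group means, pools shared in the covariance, blocks for replicate or slide, normexp (offset 50) with loess, other filters, thresholds and probes, error-weighted averages (p below 0.0001), and each array left out.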

Additional observations from a re-analysis of the deposited data

Results flagged for a closer look

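The difference between male and female liver in the change with age was called for Hsd3b2 and Hsd3b4. For Hsd3b2 the log2 age ratio of males exceeded that of females by 1.39 from 3 to 8 wk and by 1.14 from 4 to 8 wk, and for Hsd3b4 by 1.40 from 4 to 8 wk. In Hsd3b2 a male rise (M8/M4 0.92) stood beside a female ratio near 0 (F8/F4 -0.22), and in Hsd3b4 a smaller male fall (M8/M4 -0.68) stood beside a larger female one (F8/F4 -2.09). Each was tested as the difference itself in limma. The difference from 3 to 8 wk was taken between arrays of different scan days and slides. The differences from 4 to 8 wk were lost in 13 (Hsd3b2) and 12 (Hsd3b4) of the 14 fits without an array, and also when arrays were allowed to covary through their common pools, and that of Hsd3b2 from 3 to 8 wk was lost in 3 of the 14. The second probe of Hsd3b2 gave 0.96 and 0.58, in the same direction and not called. The second probe of Hsd3b4 measured all 4 groups on the replicate 2 arrays alone, where the difference from 4 to 8 wk was 0.94, with no test. With 2 arrays in a comparison, no array was compared with its group for being an outlier.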

How the results depend on the processing

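In all, 18 called ratios of members were recomputed under 30 alternatives, of which 5 left the members' values as they were or only loosened the rule and so could not end a call. Of the 443 values of the other 25 (the second probes counted for Hsd3b2 and Hsd3b4 alone) 357 were called, 86 were not and 0 changed sign. The adult ratios of Hsd3b1 (-5.31 to -3.43) and Hsd3b2 (1.09 to 1.26) in M8/F8 and the ratios of Hsd3b1 in M8/M3 and M8/M4 and of Hsd3b4 in M8/M3, F8/F3 and F8/F4 were called under all of them, where the second probe of Hsd3b4 gives only a bound in M8/M3 and F8/F3 and was measured on 1 array of F8/F4. The numbers of members called moved as follows. Without the dye term they were 4 in M8/F8 and 0 and 1 in the differences between the sexes from 3 and from 4 to 8 wk. With 6 group means they were 2 in M4/F4 and 4 (3 to 8 wk). With the shared pools in the covariance they were 1 in F8/F3, 1 in F8/F4 and 0 (4 to 8 wk). With the replicate number as a block, 1 member was called in F8/F4 and 1 in the difference from 4 to 8 wk, and no other count moved beyond 1.5 times. With the slide as a block the corresponding numbers were 1 and 0. Normexp with loess gave 1 in M3/F3 and 3 (3 to 8 wk), and probes above background alone gave 4 in M8/F8 and 3 (3 to 8 wk). A fold threshold of 2 left 0 in M4/F4 and 1 in M8/M4. Error-weighted averages gave 3 in M4/F4, 5 in F8/F3, 3 (3 to 8 wk) and 1 in M4/M3. The second probes of Hsd3b2 and Hsd3b4 gave 0 in M4/F4, 1 in M8/M4 and 0 in both differences. With each array left out, the counts ranged over 0 to 2 in M4/F4, 2 to 3 in M8/F8, 3 to 4 in M8/M3, 2 to 3 in M8/M4, 1 to 4 in F8/F3, 1 to 2 in F8/F4, 0 to 2 (3 to 8 wk) and 0 to 1 (4 to 8 wk). The causes were not tested. Signal limits the second probe of Hsd3b4, above background in 16 of 28 channels, and the M8 level of Hsd3b1, with a processed signal of 54.4 to 134 on the M8/F8 arrays.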
